A study of Xenopus laevis with 37 samples.

Results

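The regional difference between hindgut and foregut was examined in unheated Xenopus laevis embryos from the heat shock experiment of the series. The libraries are the 2 whose table columns begin with HG noHS and the 2 that begin with FG noHS, so 4 of 37 libraries, with n = 2 per region. All are RNA-seq libraries of whole explants of a gut region at stage NF20. The labels describe the experiment as one with an hsp:Dkk1GFP transgene, a heat-inducible form of the secreted Wnt antagonist Dkk1, and the genotype field of these same samples reads wild type. Heated samples received 30 min at 37 °C and were then kept at 13 °C, while these 4 libraries are labelled as without heat shock, and their temperature is not in the labels. The foregut columns carry the replicate numbers 1 and 2. The hindgut columns are written rep 12 and rep 23, numbers that match no sample title, so they are called hindgut library 12 and hindgut library 23. Values are in TPM (transcript abundance scaled for length and for the library's total), given for foregut replicates 1 and 2 and then for hindgut libraries 12 and 23. X. laevis is an allotetraploid frog, and the suffixes .L and .S mark the copies (homeologs) of a gene on its long and short chromosome sets.

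Other sets of libraries are used for comparison. Vehicle explants were foregut and hindgut of wild type embryos cultured in DMSO from NF12 to NF20 (n = 3 per region). Separated endoderm and separated mesoderm came from wild type foregut and hindgut at the same stage, with no treatment in their labels (n = 2 per region and layer). The hindgut mesoderm libraries are named mesoderm in their titles, and their tissue field reads hindgut endoderm. Their summed endoderm markers lay at 86.3 to 99.5 TPM, against 5713 to 5859 TPM in the hindgut endoderm libraries, which goes with the titles. The mesoderm libraries also held 5193 to 7896 TPM of summed epidermal markers (itln1, tp63), against 0.82 to 10.4 TPM in the endoderm libraries, so "mesoderm" below means mesoderm with overlying ectoderm.

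The vertebrate gut tube is regionalised along its length before organs form. Posterior endoderm and mesoderm are exposed to Wnt, FGF and BMP signals and express caudal-type (Cdx) and posterior Hox transcription factors, while the foregut, which gives rise to liver, pancreas, lung and thyroid, is shielded by secreted Wnt antagonists and expresses factors such as Hhex. In Xenopus the explanted foregut region lies next to the heart field and to the site where the first myeloid cells arise, and the tail bud with its presomitic mesoderm lies at the posterior end.

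The regional labels were checked against marker genes. The summed level of the 6 cdx features was 44.7 to 92.2 TPM in the foregut and 553 to 693.6 TPM in the hindgut. Summed foregut markers (hhex, nkx2-1, sfrp5) were at 39.6 to 91.4 TPM and 1.72 to 6.14 TPM, although nkx2-1.L itself was at or near 0 in all 4 libraries. General endoderm markers (a2m, foxa1, foxa2, gata6, sox17a) summed to 864.9 and 1815 TPM in the foregut and to 1015 and 1595 TPM in the hindgut, and the regions overlapped. Dkk1, the gene of the transgene, was listed in every library: dkk1.L was at 15.9 and 20.8 TPM in the foregut and at 6.17 and 13.4 TPM in the hindgut, and dkk1.S at 10.2 and 13.6 TPM and at 6.78 and 7.94 TPM. Both were below the foregut in each hindgut library, and neither difference passed the test (−0.92 ± 0.53, adjusted p = 0.885, and −0.62 ± 0.56, adjusted p = 1.0). In the heated libraries the dkk1 sum, 24.4 to 29.6 TPM in the foregut and 12.37 to 15.19 TPM in the hindgut, was not above that of the unheated ones (26.1 to 34.5 and 12.9 to 21.3 TPM); whether transgene reads were counted under these features is not given in the sources used here. Hindgut library 23 stood apart in 3 features that held 10000 TPM or more and at least 2 times their level in hindgut library 12: Xelaev18029838m.g was at 71123 TPM there (7.11% of the library) and at 1144 TPM in hindgut library 12. A heated hindgut library showed the like level, 71897 TPM.

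Each feature was tested with limma on log2(TPM + 1), in one model of all 37 libraries and 15 groups. Differences below are hindgut minus foregut on that log2 scale, with the standard error, and a feature was called at a Benjamini-Hochberg adjusted p under 0.05. Because 1 TPM was added, the difference understates the change of low genes, and no such difference is given in the text for a gene listed at 0 in both libraries of a region. Of 28863 features tested, 191 were higher in the hindgut (0.662% of those tested) and 209 were lower (0.724%). The median difference over all features was −0.08. Without foregut replicate 2 the total of 400 fell to 245, and without hindgut library 23 to 224. The spread was estimated largely from the other groups: fitted on the 4 libraries alone, limma called 0 features (2276 at an unadjusted p under 0.05), and fitted on the 8 libraries of the heat shock experiment it called 89. In bulk tissue, fewer cells of a type and less RNA per cell cannot be told apart.

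**Figure D1:**
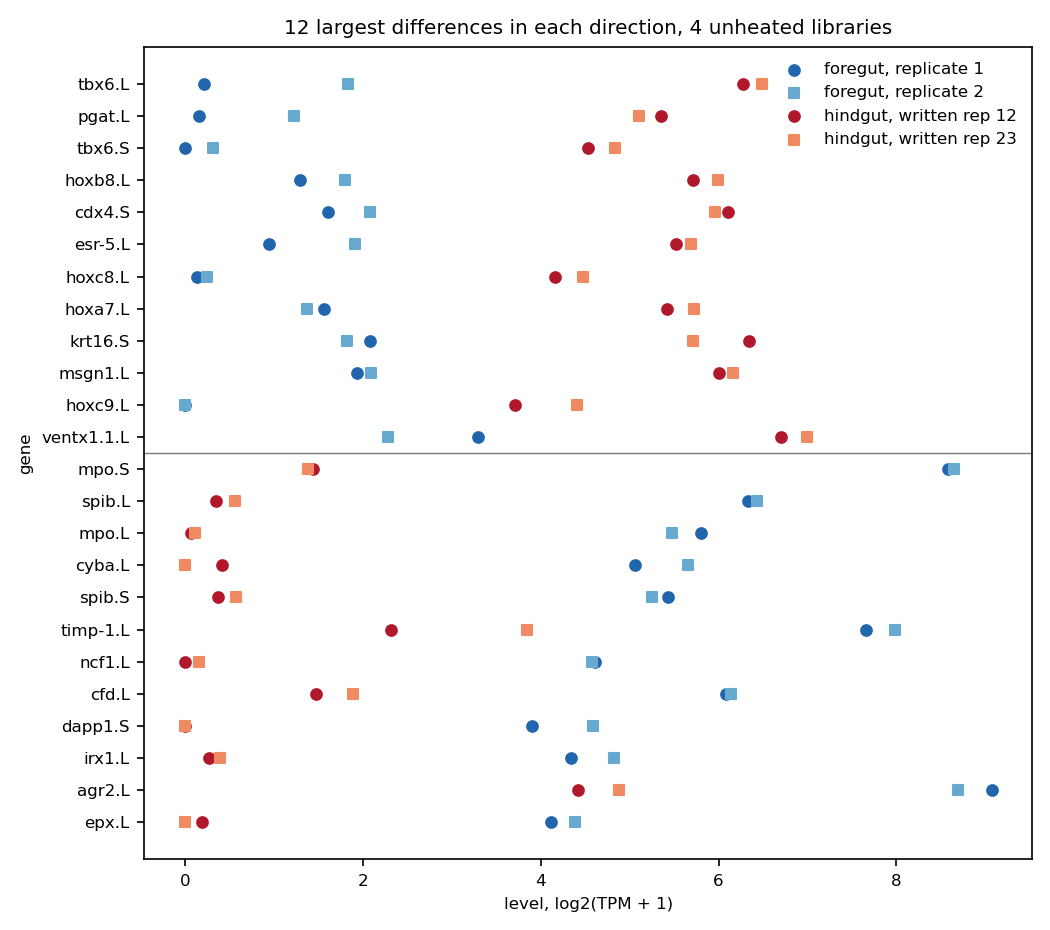
Levels as log2(TPM + 1) (horizontal axis) of the 12 features with the largest difference in each direction (vertical axis) in the 4 unheated libraries; each point is 1 library. The choice of these 24 features required no overlap between the regions, so their foregut and hindgut points lie on separate sides of a gap. The foregut libraries of tbx6.L, pgat.L and esr-5.L lie farther apart than their hindgut libraries.

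Caudal genes were higher in the hindgut. Of 55 tested members of a list of caudal and tail bud genes, 25 were higher in the hindgut and 0 were lower, with a median difference of 1.48 against −0.08 for all features. The count ranged from 18 to 23 with 1 library left out. The cdx genes encode homeodomain factors that specify posterior identity. Cdx4.S was at 2.05 and 3.22 TPM in the foregut and at 67.7 and 61.1 TPM in the hindgut. Cdx4.L was at 13.4 and 4.48 TPM and at 122 and 103 TPM. The regions did not overlap for either copy (4.19 ± 0.44, adjusted p = 1.71e-06, and 3.67 ± 0.49, adjusted p = 2.93e-05). Cdx2.S was the cdx feature with the highest hindgut level, at 251 and 173 TPM, against 35.4 and 10.2 TPM in the foregut (3.37 ± 0.54, adjusted p = 0.000357). Cdx2.L was at 35.8 and 20.9 TPM and at 167 and 143 TPM (2.45 ± 0.37, adjusted p = 0.000138). Cdx1.S stood at 5.17 and 5.29 TPM in the foregut and at 81.5 and 68.7 TPM in the hindgut (3.61 ± 0.45, adjusted p = 1.19e-05). For all of these the lowest hindgut library was above the highest foregut library. Its homeolog cdx1.L was lower throughout, at 0.37 and 0.56 TPM and at 4.78 and 4.9 TPM (adjusted p = 0.00468), and lost its call without foregut replicate 1 (0.065) or hindgut library 23 (0.0609).

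Other caudal members included BMP-responsive homeobox genes and regulators of tail bud mesoderm. Ventx1.1.L, a homeobox repressor with ventral expression in Xenopus, was at 8.8 and 3.89 TPM in the foregut and at 103 and 126 TPM in the hindgut (4.06 ± 0.34, adjusted p = 7.3e-08). Ventx1.2.L (7.42 and 5.11 against 90.5 and 94.5 TPM) and ventx3.2.L (3.62 and 4.33 against 35.4 and 45.8 TPM) were likewise higher, without overlap. Ventx1.1.S was at 28.7 and 8.28 TPM and at 156 and 150 TPM (adjusted p = 0.00422), and its call was lost without foregut replicate 2 (0.21) or hindgut library 23 (0.0509). Evx1.L, an even-skipped-type homeobox gene of the posterior body, was at 0.38 and 0.88 TPM and at 9.85 and 13.7 TPM (2.97 ± 0.47, adjusted p = 0.000259). Brachyury, listed as t.L, was low in all libraries, at 0.07 TPM in both foregut libraries and at 2.43 and 5.7 TPM in the hindgut (adjusted p = 0.0379), a call lost without hindgut library 23 (0.521), foregut replicate 1 (0.18) or foregut replicate 2 (0.214).

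Hox genes differed by their place in the cluster. Hox proteins specify position along the body axis, and the paralog groups are numbered from anterior to posterior expression. Among groups 6 to 13, 31 of 41 tested features were higher in the hindgut and 0 were lower (median difference 2.61), whereas 4 of 32 in groups 1 to 5 were higher and 0 were lower (median 0.39). Leaving out 1 library gave 22 to 27 calls in groups 6 to 13, and 2 in groups 1 to 5 without hindgut library 23. The median difference went from −1.12 in group 1 through 0.95 in group 4 to 2.6 in group 6 and 3.55 in group 8. It was 3.14 in group 9, 3.43 in group 10 and 1.77 in group 11. In groups 12 and 13 it was 0.38 and 0.43, with median hindgut levels of 1.74 and 0.865 TPM. All 6 features of group 6, all 4 of group 7 and all 6 of group 10 were called, against 0 of 6 in group 1, 0 of 4 in group 2 and 0 of 8 in group 3.

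Hoxa7.L was at 1.95 and 1.59 TPM in the foregut and at 41.8 and 51.8 TPM in the hindgut (4.1 ± 0.30, adjusted p = 5.75e-09). Hoxb8.L was at 1.45 and 2.49 TPM and at 51.6 and 62.8 TPM (4.31 ± 0.62, adjusted p = 7.98e-05). Hoxc8.L was at 0.1 and 0.19 TPM and at 17 and 21.2 TPM (4.13 ± 0.41, adjusted p = 1.08e-06). In all 3 each foregut library was at or below 2.49 TPM, and the hindgut libraries lay close together and well above it. Hoxc9.L, hoxa9.L, hoxc10.L and hoxa10.L were listed at 0 in both foregut libraries, with 12.1 and 20.3, 8.84 and 15.2, 14.5 and 16.5, and 6.44 and 12.7 TPM in the hindgut. The adjusted p values of these 4 were 2.4e-05, 5.18e-06, 3.61e-05 and 2.39e-05. In groups 4 and 5 the calls were hoxc4 and hoxa5, both copies: hoxc4.L was at 3.91 and 2.01 TPM and at 25.1 and 23.3 TPM (2.71 ± 0.47, adjusted p = 0.000916), and hoxa5.L at 1.12 and 0.59 TPM and at 6.71 and 9.34 TPM (2.28 ± 0.37, adjusted p = 0.000349). Hoxc4.S lost its call without foregut replicate 2 (0.158) or hindgut library 23 (0.0893), and hoxa5.S without foregut replicate 1 (0.0583) or hindgut library 23 (0.058).

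Presomitic and somitic genes were also higher in the hindgut explants. Of 49 tested members of the paraxial and somite list, 15 were higher and 0 were lower (median difference 1.05). The count was 8 without foregut replicate 1 and 7 without hindgut library 23. Tbx6.L, a T-box factor required for paraxial mesoderm, had the largest increase among called features with a symbol: 0.16 and 2.56 TPM in the foregut against 76.4 and 88.8 TPM in the hindgut (5.36 ± 0.62, adjusted p = 5.06e-06). Msgn1.L, a bHLH factor of the presomitic mesoderm, was at 2.83 and 3.26 TPM and at 63.1 and 70.4 TPM (4.07 ± 0.51, adjusted p = 1.32e-05). For both genes the 2 hindgut libraries were close and far above the foregut. Tbx6, msgn1 and tbx6r features, 5 of the 15 paraxial calls, stand in the caudal list too. In vehicle explants 13 features of the paraxial list were higher in the hindgut and 4 were lower (median 0.12), against 2.38% and 5.08% of all features. Of the 15 unheated calls, 9 were also called higher there. A test of the difference between the unheated and vehicle contrasts called 0 of the 49 in either direction. Esr-5.L, a hairy/Enhancer-of-split gene expressed in Xenopus presomitic mesoderm, was at 0.93 and 2.78 TPM and at 44.9 and 50.6 TPM (4.17 ± 0.76, adjusted p = 0.00167, or 0.0524 without foregut replicate 1).

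Later muscle genes were tested too. The myogenic factor myod1.S was at 0.46 and 3.88 TPM in the foregut and at 21.2 and 39.2 TPM in the hindgut (3.48 ± 0.71, adjusted p = 0.00586, or 0.196 without foregut replicate 1 and 0.15 without hindgut library 23). Myf5.L, another myogenic factor, was listed at 0 in both foregut libraries and was at 9.83 and 9.8 TPM in the hindgut (adjusted p = 0.000211). Cardiac and embryonic skeletal actin, actc1.L, was at 2.84 and 8.3 TPM and at 68.9 and 237 TPM, and its adjusted p was 0.0537. The 9 somite and muscle markers together summed to 8.71 and 42.5 TPM in the foregut and to 195 and 592 TPM in the hindgut, and reached 9.45 to 122.5 TPM in vehicle hindgut and 5608 to 6214 TPM in dorsal explants of the series. Notochord markers (not, shh) summed to 0.95 to 3.31 TPM in the foregut and 1.77 to 3.33 TPM in the hindgut. The part of somite tissue in these results was not tested.

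Signalling genes of the Wnt pathway moved in both directions. Frizzled receptors and Wnt ligands start the pathway, and secreted frizzled-related proteins (Sfrp) block it outside the cell. Among 56 ligands and receptors, 7 were higher in the hindgut and 4 were lower, and the lower ones numbered 0 to 2 with 1 library left out (0 without foregut replicate 2). Wnt8a.S, a ventral and posterior Wnt ligand, was at 2.59 and 1.8 TPM and at 22.3 and 25.9 TPM (2.98 ± 0.48, adjusted p = 0.000343). The receptor fzd10.S was at 7.65 and 9.56 TPM and at 51.4 and 54.4 TPM (2.49 ± 0.26, adjusted p = 1.71e-06), and fzd10.L was at 9.75 and 6.72 TPM and at 50.6 and 48.1 TPM. Wnt5b.S, a ligand of non-canonical signalling, was at 3.98 and 7.62 TPM and at 35.4 and 36.6 TPM (2.50 ± 0.43, adjusted p = 0.000933). In each of these the regions did not overlap. Fzd8.S went the other way, at 20.7 and 23.9 TPM in the foregut and 2.66 and 4.43 TPM in the hindgut (−2.38 ± 0.46, adjusted p = 0.00298, or 0.0564 without foregut replicate 2 and 0.0783 without hindgut library 12).

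Of 36 Wnt antagonist features, 5 were lower in the hindgut and 0 were higher (median −0.15). The lower calls numbered 1 to 3 when 1 library was left out (1 without hindgut library 12). In vehicle hindgut 12 of the 36 were lower and 5 were higher, against 5.08% and 2.38% of all features. The separated layers held calls in both directions. In endoderm 7 were lower in the hindgut and 11 were higher (7.86% and 10.7% of all features), and in mesoderm 3 and 5 (0.915% and 1.44%). Sfrp2.S was at 89.99 and 116 TPM in the foregut and at 8.99 and 13.3 TPM in the hindgut (−3.11 ± 0.41, adjusted p = 2.11e-05). Sfrp5.S, a Wnt antagonist of the foregut endoderm, was at 13.7 and 12.9 TPM and at 1.1 and 2.7 TPM (−2.36 ± 0.42, adjusted p = 0.00141, or 0.0645 without hindgut library 12). On the response side, 12 of 50 features in the list of Wnt feedback genes and targets passed as higher and 0 as lower (median 0.42), but 11 of these 12 are cdx, tbx6, msgn1 and t features that the caudal list holds too. The other is axin2.L, a feedback inhibitor induced by Wnt signalling in many tissues, at 2.56 and 1.14 TPM in the foregut and at 23.4 and 16.3 TPM in the hindgut (2.90 ± 0.41, adjusted p = 5.35e-05). Axin2.S was at 1.34 and 1.23 TPM and at 2.13 and 2.19 TPM, and sp5.L, another Wnt target, at 2.36 and 1.6 TPM and at 1.75 and 1.92 TPM, and neither passed (adjusted p = 1.0 for both).

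For BMP signalling, 0 of 27 ligand and receptor features were called with limma (2 at an unadjusted p under 0.05), and bmp4.L was at 40.2 and 33.8 TPM in the foregut and at 42.8 and 37.4 TPM in the hindgut. Bmp4.L was called higher in vehicle hindgut (0.82, adjusted p = 0.0128) and in separated hindgut endoderm (1.69, adjusted p = 2.53e-05). It was not called in mesoderm (−0.24, adjusted p = 0.878). Among 48 feedback and target features, 8 were higher and 0 were lower, of which 6 were ventx features shared with the caudal list. The count was 5 without foregut replicate 1, foregut replicate 2 or hindgut library 23. The other 2 were twsg1.S, a secreted BMP modulator, at 5.76 and 4.58 TPM and at 15.3 and 24.1 TPM (1.72 ± 0.43, adjusted p = 0.0369), and the homeobox gene msx1.L, at 128 and 138 TPM and at 375 and 395 TPM (1.53 ± 0.39, adjusted p = 0.0461). Both calls were lost without any 1 of the 4 libraries (adjusted p = 0.0614 to 0.454 for twsg1.S and 0.188 to 0.285 for msx1.L). Bambi.L and smad7.L, feedback inhibitors of the pathway, were at 227 and 296 against 274 and 270 TPM and at 43.4 and 57.7 against 49 and 58.2 TPM, with overlapping regions.

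In the FGF list 3 of 44 features were higher (fgf10.L, fgf20.L and fgf2.L, adjusted p = 0.0328 to 0.0446) and 0 were lower, and 0 or 1 were called with 1 library left out (0 without foregut replicate 1, hindgut library 12 or hindgut library 23). In the retinoic acid list 4 of 29 were lower in the hindgut and 0 were higher, and 0 to 2 with 1 library left out (0 without hindgut library 12). They included cyp26c1.S, which degrades retinoic acid, at 8.57 and 5.13 TPM and at 0.65 and 0.49 TPM (−2.29 ± 0.50, adjusted p = 0.0125, or 0.184 without foregut replicate 1, 0.073 without hindgut library 12 and 0.138 without hindgut library 23), and rdh10.L, an enzyme of retinoic acid synthesis, at 244 and 463 TPM and at 86.9 and 168 TPM (adjusted p = 0.0253, or 0.554 without foregut replicate 2 and 0.447 without hindgut library 12). Of 30 Nodal and TGF-beta features, 2 were higher, gdf3.S (adjusted p = 0.000612) and nodal1.L (adjusted p = 0.0299, or 0.0841 to 0.325 without any 1 of the 4 libraries), both ligands listed at 0 in the foregut and at or below 4.05 TPM in the hindgut.

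Foregut genes were lower in the hindgut. Of 53 tested members of the foregut endoderm list, 13 were lower and 0 were higher (median difference −0.92); 8 were lower without foregut replicate 1 or 2, and 6 without hindgut library 12. Hhex.L, a homeobox gene needed for liver and thyroid buds, was at 11.3 and 46.9 TPM in the foregut and at 0.21 and 0.85 TPM in the hindgut (−4.02 ± 0.62, adjusted p = 0.000202). Foregut replicate 2 and hindgut library 23 were the higher ones in their regions, and the regions did not overlap. Hhex.S was at 11.1 and 28.4 TPM and at 0.07 and 2.11 TPM (adjusted p = 0.00223), with its call lost without foregut replicate 2 (0.112) or hindgut library 12 (0.113). Tbx1.L, a T-box gene of the pharynx, was at 29.6 and 45.6 TPM and at 1.66 and 2.64 TPM (−3.60 ± 0.47, adjusted p = 1.82e-05). Otx2.L, a homeobox gene of the anterior endoderm and head, was at 10.1 and 7.96 TPM and at 0.38 and 0.2 TPM (−2.95 ± 0.55, adjusted p = 0.00234). Otx2.L also stands in the head ectoderm list, and sfrp2 and sfrp5 among the Wnt antagonists.

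Among genes of the endoderm at large, 1 call was made. Of 38 general endoderm features, 1 was lower and 0 were higher (median −0.24). That feature was gata4.L, a zinc finger factor shared by endoderm and heart, at 19.1 and 23 TPM and at 1.67 and 1.22 TPM (−3.17 ± 0.68, adjusted p = 0.0104); the call was lost without any 1 of the 4 libraries (0.06 to 0.131). Sox17a.L, an endoderm determinant, was at 75.1 and 135 TPM in the foregut and at 138 and 193 TPM in the hindgut (adjusted p = 0.9). In separated endoderm 16 of the 38 were higher in the hindgut and 1 was lower, against 10.7% and 7.86% of all features. In mesoderm 4 were higher and 0 were lower. Sox17a.L was called higher in both hindgut layers (1.35 in endoderm, adjusted p = 0.0184, and 1.98 in mesoderm, adjusted p = 0.00389).

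Primitive myeloid genes held the largest decreases among called features with a symbol. Of 22 tested members, 10 were lower in the hindgut and 0 were higher (median −1.79). The median lay between −1.75 and −1.59 with 1 library left out. In the fit of the 8 libraries of the heat shock experiment 1 was lower and 0 were higher. Mpo.S encodes myeloperoxidase, an enzyme of myeloid granules, and was at 380 and 400 TPM in the foregut and at 1.71 and 1.62 TPM in the hindgut (−7.20 ± 0.82, adjusted p = 3.92e-06). Spib.L, an Ets factor that in Xenopus directs primitive myeloid cells, was at 79.6 and 85.1 TPM and at 0.28 and 0.48 TPM (−5.92 ± 0.52, adjusted p = 7.85e-08). The foregut libraries agreed closely in both genes and the hindgut libraries were near 0. Cyba.L and ncf1.L, subunits of the phagocyte NADPH oxidase, were at 32.4 and 49.3 against 0.34 and 0 TPM and at 23.4 and 22.8 against 0 and 0.12 TPM (adjusted p = 1.71e-06 and 6.95e-06). Cebpa.L, a myeloid and hepatic factor, was present in the hindgut too, at 45.2 and 85.9 TPM against 9.71 and 23.3 TPM (−1.97 ± 0.39, adjusted p = 0.00356, or 0.174 without foregut replicate 2 and 0.193 without hindgut library 12). The homeolog cyba.S was not called, at 6.1 and 7.71 TPM and at 4.39 and 4.83 TPM (−0.49 ± 0.44, adjusted p = 1.0).

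Other features among the 12 with the largest decrease include genes for proteins of blood cells or secreted proteins. The Iroquois factor irx1.L, given below, is also among the 12. Epx.L, eosinophil peroxidase, was at 16.3 and 19.8 TPM and at 0.14 and 0 TPM (adjusted p = 6.95e-06). Cfd.L, complement factor D, was at 66.6 and 69.3 TPM and at 1.77 and 2.7 TPM (−4.43 ± 0.56, adjusted p = 1.21e-05). Timp-1.L, an inhibitor of metalloproteinases, was at 201 and 253 TPM and at 3.98 and 13.4 TPM (−4.74 ± 0.80, adjusted p = 0.000617). Dapp1.S, an adaptor of lymphoid signalling in mammals, was listed at 0 in both hindgut libraries and was at 14 and 23 TPM in the foregut (adjusted p = 1.08e-06).

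Among heart and lateral plate genes, 8 of 46 were lower and 1 was higher (median −0.30). Lower calls numbered 4 without foregut replicate 2 and 5 without hindgut library 23. The cardiac homeobox gene nkx2-5.S was at 12.9 and 22.3 TPM in the foregut and at 0.04 and 0.91 TPM in the hindgut (−3.68 ± 0.39, adjusted p = 1.71e-06), and nkx2-5.L was at 11 and 31.2 TPM and at 0 and 0.3 TPM. Tcf21.L, a bHLH factor of visceral and cardiac mesoderm, was at 11.6 and 15 TPM and at 2.72 and 0.83 TPM (−2.44 ± 0.56, adjusted p = 0.0175, or 0.0713 without foregut replicate 1, 0.19 without foregut replicate 2 and 0.362 without hindgut library 23). The 1 higher feature was mespa.L, a segmentation gene that also marks early cardiac mesoderm in mouse, at 0.29 and 1.09 TPM and at 6.07 and 12.7 TPM (adjusted p = 0.00187, or 0.0623 without foregut replicate 1 and 0.101 without hindgut library 23). The lateral plate marker foxf1 summed to 22.1 to 26 TPM and 30.3 to 31 TPM.

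In the blood island and endothelium list 4 of 41 were lower and 0 were higher: alas2.S, a haem synthesis enzyme, at 6.89 and 7.85 TPM and at 0.28 and 0.85 TPM (−2.44 ± 0.34, adjusted p = 3.88e-05), fli1.S and both copies of lyl1. Globin and gata1 together were under 1 TPM in every library. In the pronephros list 5 of 34 were lower and 0 were higher, or 3 without foregut replicate 2, and 3 of the 5 were irx1 and irx3 features that the neural list holds too. The kidney markers pax8 and lhx1 summed to 60.0 to 84.1 TPM in the foregut and 51.5 to 67.5 TPM in the hindgut, with overlap.

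**Figure D2:**
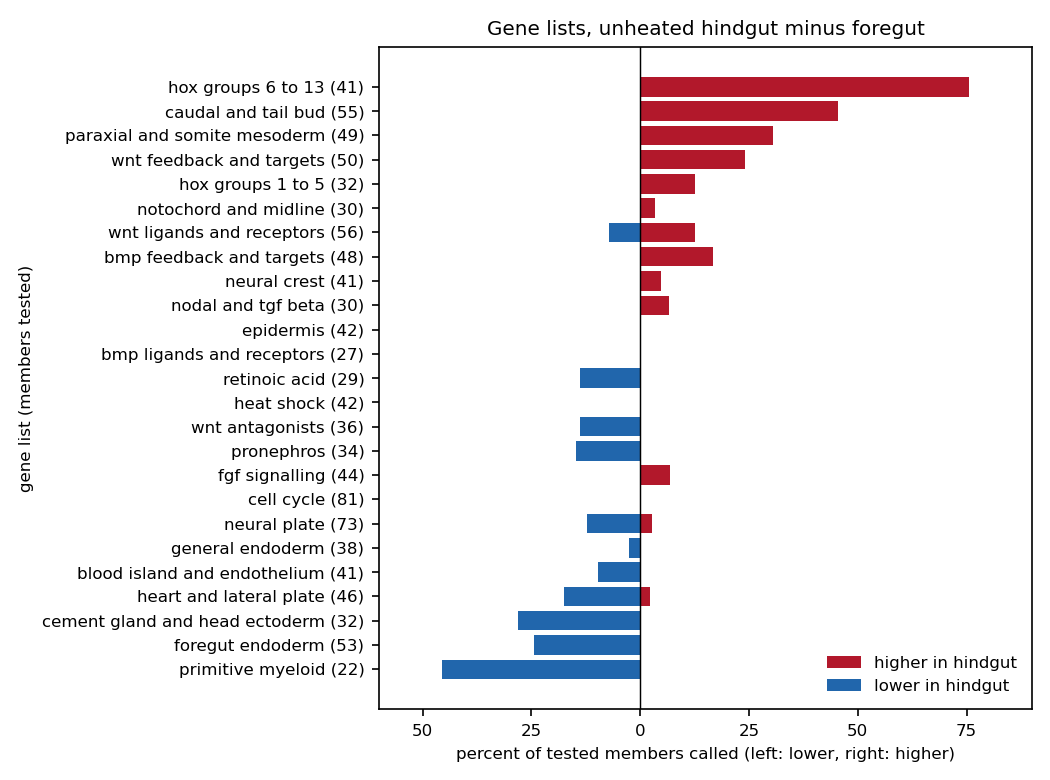
Percent of the tested members of each of 25 gene lists (vertical axis, number tested in brackets) that were higher (right) or lower (left) in the unheated hindgut at an adjusted p under 0.05. Hox groups 6 to 13 (75.6%) and caudal and tail bud genes (45.5%) lead to the right, and primitive myeloid genes (45.5%) to the left, against 0.662% and 0.724% of all features.

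Genes of head ectoderm were higher in the foregut explants. Of 32 cement gland and head ectoderm features, 9 were lower in the hindgut and 0 were higher (median −0.90), or 6 without either foregut replicate or hindgut library 12. The cement gland is an anterior secretory organ of frog embryos. Its gene agr2.L was at 536 and 411 TPM in the foregut and at 20.4 and 28.5 TPM in the hindgut (−4.23 ± 0.65, adjusted p = 0.00019), and ag1.L was at 149 and 125 TPM and at 9.79 and 9.18 TPM (−3.72 ± 0.49, adjusted p = 2.29e-05). Summed cement gland markers were 1141 to 1477 TPM and 80.9 to 96.2 TPM in the regions. Of 73 neural plate features, 9 were lower and 2 were higher (median −0.22), and the 2 were lost without foregut replicate 1, hindgut library 12 or hindgut library 23. Irx1.L, an Iroquois factor, was at 19.2 and 27.4 TPM and at 0.21 and 0.32 TPM (−4.24 ± 0.50, adjusted p = 6.04e-06), and neurog1.L, a proneural factor, was at 2.43 and 3.03 TPM in the foregut and listed at 0 in the hindgut (adjusted p = 0.00204). The 2 higher ones were both copies of the homeobox gene emx2, with emx2.L at 2.85 and 5.63 TPM and at 19.2 and 16.2 TPM (adjusted p = 0.0169). Neural markers (sox2, sox3, pax6, neurog1) summed to 39.4 to 52.5 TPM and 8.78 to 10.7 TPM. Their sum was 100.5 to 174.9 TPM in separated foregut endoderm and 29.5 to 32.5 TPM in foregut mesoderm with its ectoderm. The part of anterior ectoderm in the foregut calls was not tested.

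No epidermal call was made: 0 of 42 features of the epidermis list were called with limma (2 at an unadjusted p under 0.05). The summed markers itln1 and tp63 overlapped at 2723 to 4568 TPM in the foregut and 3060 to 4675 TPM in the hindgut. Most of that sum was itln1.L, at 4527 and 2692 TPM and at 4624 and 3016 TPM. Krt16.S, a keratin outside that list and among the 12 largest increases, was at 3.23 and 2.53 TPM in the foregut and at 79.9 and 51.5 TPM in the hindgut (4.08 ± 0.51, adjusted p = 1.12e-05). In the neural crest list 2 of 41 were higher, tfap2e.L (adjusted p = 0.000788) and msx1.L, and 0 were lower. In the notochord list t.L was the 1 call among 30. No heat shock feature among 42 was called, and 0 had an unadjusted p under 0.05. No cell cycle feature among 81 was called, and 10 had an unadjusted p under 0.05, with the replication helicase subunit mcm5.L at 91.6 and 117 TPM and at 65.1 and 69.3 TPM (−0.62 ± 0.18, adjusted p = 0.113).

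The separated layers gave the same contrast by tissue, in libraries whose values do not enter the unheated difference, although they share its estimate of spread. Of 28863 features, 3086 (10.7%) were higher in hindgut than foregut endoderm and 2269 (7.86%) were lower, and in mesoderm 415 (1.44%) were higher and 264 (0.915%) were lower. Of the 191 features higher in the unheated hindgut, 84 were also higher in both layers, 35 in endoderm alone, 53 in mesoderm alone and 19 in neither. Of the 209 lower ones, 75 were lower in both layers, 32 in endoderm alone, 51 in mesoderm alone and 51 in neither. Opposite calls numbered 1 and 2 in endoderm and 0 in mesoderm. Levels also differed between the layers themselves: within the hindgut 21.6% of features were higher in mesoderm and 11.6% were higher in endoderm, and of the 191, 76 and 57 were. Within the foregut the shares were 18% and 8.5%, and of the 209, 71 and 52 were.

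**Figure D3:**
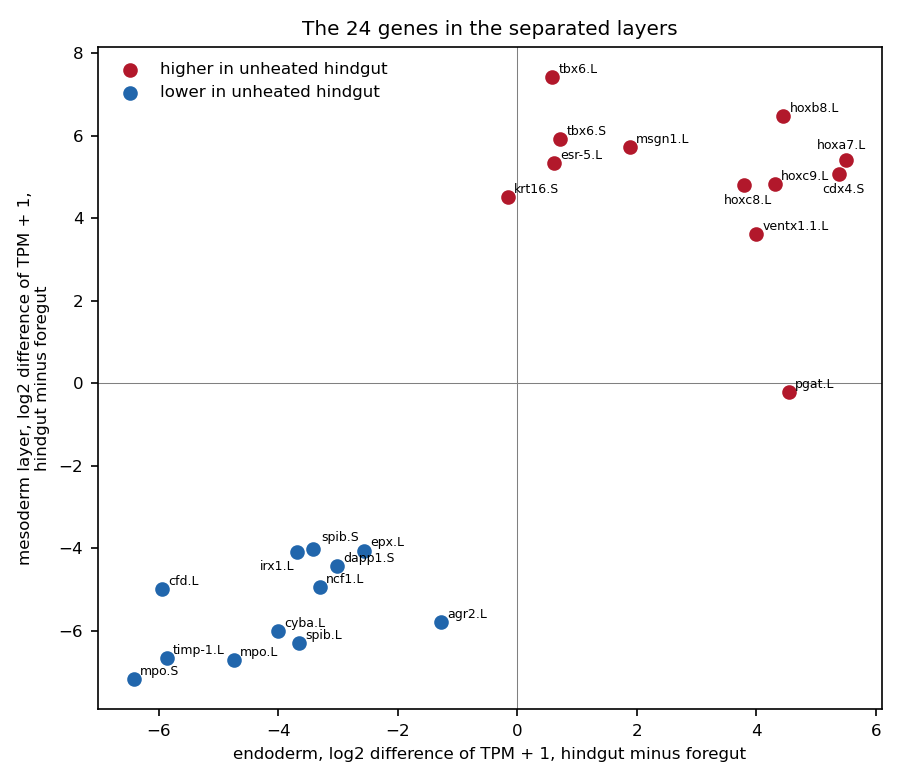
Regional difference in log2(TPM + 1) in separated endoderm (horizontal axis) and in separated mesoderm with its ectoderm (vertical axis) for the 12 features with the largest difference in each direction in unheated explants; each point is 1 feature, from 2 libraries per region and layer. Cdx4.S, ventx1.1.L and the 4 Hox features lie high on both axes, tbx6, esr-5.L and krt16.S on the vertical axis only, pgat.L on the horizontal axis only, and the myeloid features low on both.

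The genes higher in the unheated hindgut were set beside the layer contrasts. Of the 31 posterior Hox calls, 25 were also called in endoderm, 30 in mesoderm and 24 in both. Cdx4.S differed by 5.39 in endoderm and 5.07 in mesoderm (adjusted p = 2.16e-09 and 2.12e-08). Of the 15 paraxial calls, 13 were called in mesoderm and 1 in endoderm: tbx6.L differed by 7.43 in mesoderm (adjusted p = 1.02e-08) and by 0.58 in endoderm (adjusted p = 0.62). Axin2.L was higher in both hindgut layers (3.1 in endoderm, 2.14 in mesoderm). Fzd10.L differed by 5.59 in endoderm and by 2.53 in mesoderm. Msx1.L was called in endoderm (3.32, adjusted p = 6.96e-07) and not in mesoderm (0.44, adjusted p = 0.802). Whether a difference itself differed between the layers was not tested.

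Genes lower in the unheated hindgut were set beside the layers as well. Of the 13 foregut endoderm calls, 12 were lower in hindgut than foregut endoderm and 9 were lower in mesoderm. Sfrp5.S differed by −2.98 in endoderm (adjusted p = 8.52e-06) and by −0.10 in mesoderm (adjusted p = 1.0), and hhex.L by −3.18 and −2.61. Of the 9 cement gland and head ectoderm calls, 8 were lower in mesoderm with its ectoderm and 3 in endoderm, with agr2.L at −5.79 (adjusted p = 8.25e-07) and −1.27 (adjusted p = 0.19). All 10 myeloid calls were lower in both layers. Mpo and spib summed to 572 to 691 TPM in foregut mesoderm and 133 to 273 TPM in foregut endoderm, and to 8.19 TPM or less in both hindgut layers. Gata4.L did not pass in either layer (−0.61 in endoderm and −1.39 in mesoderm).

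Vehicle explants gave the same contrast in another experiment of the series. There 688 features were higher in the hindgut (2.38%) and 1467 were lower (5.08%), or 887 and 1000 when libraries were rescaled by median of ratios. Of the 191 features higher in the unheated hindgut, 141 were also higher in vehicle hindgut (73.8% of the unheated and 20.5% of the vehicle calls). Of the 209 lower ones, 181 were also lower (86.6% and 12.3%), and 0 were called in opposite directions. Conversely, 560 features were at least 2-fold higher and called in vehicle, with a median difference of 1.81 there and 1.02 in the unheated explants, and 527 had the same sign. For the 1073 features at least 2-fold lower the medians were −1.63 and −0.72, and 981 had the same sign. These features were chosen on their vehicle values, so the smaller unheated median is a description.

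A test of the difference itself, unheated minus vehicle, called 53 features: 45 with a higher value in the unheated contrast (0.156%) and 8 with a lower value (0.0277%). With the vehicle replicate number as a block the total was 90, and without hindgut library 23 it was 7; without foregut replicate 1 it was 29. The groups also differ in treatment and experiment, and in the transgene if the unheated embryos carried it, and these cannot be told apart. Several of the 53 were genes that separate the vehicle regions widely and the unheated regions less. Pitx1.L, a homeobox gene of the cement gland and mouth, was at 80.7, 105 and 130 TPM in vehicle foregut and at 0.96, 0.9 and 0.5 TPM in vehicle hindgut. In the unheated libraries it was at 14.9 and 10.2 TPM and at 2.86 and 2.49 TPM (difference between the contrasts 4.01 ± 0.83, adjusted p = 0.0352). That call was lost without any 1 of the 10 libraries of the groups compared (adjusted p = 0.0512 to 0.194), with 0.1 TPM added (0.358) and with median-of-ratios scaling (0.0819). Summed cement gland markers were 6191 to 9879 TPM in vehicle foregut against 1141 to 1477 TPM in unheated foregut, and summed neural markers 162 to 375 TPM against 39.4 to 52.5 TPM. Their part in the result was not tested.

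Dkk1.L was at 21, 24 and 51.7 TPM in vehicle foregut and at 0.29, 0.2 and 1.56 TPM in vehicle hindgut. Its unheated regional difference was −0.92 and its vehicle difference −4.28 (difference between them 3.36 ± 0.68, adjusted p = 0.0307). The call was lost without vehicle foregut replicate 3 or vehicle hindgut replicate 1 or 2 (adjusted p = 0.07 to 0.0831). It was also lost without either unheated foregut replicate or hindgut library 23 (differences of 2.86 to 3.55). With 5 TPM added the adjusted p was 0.11, and with only the libraries compared it was 0.338. The homeolog dkk1.S was not called in this test. In the unheated hindgut dkk1.L was thus above every vehicle hindgut library, while both unheated foregut libraries lay under the lowest vehicle foregut library. Posterior genes were among the 8 on the other side. Hoxc6.S was at 4.33 and 4.93 TPM in the unheated foregut and at 24.9 and 42.5 TPM in the unheated hindgut. In vehicle it was at 0.39, 0.22 and 0.42 TPM and at 122, 42.5 and 57.1 TPM (difference between the contrasts −3.08 ± 0.54, adjusted p = 0.00878, or 0.0807 without hindgut library 12). Every unheated foregut library was above every vehicle foregut library for hoxc6.S. The cdx sum likewise was 44.7 to 92.2 TPM in unheated foregut and 6.67 to 36.3 TPM in vehicle foregut.

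**Figure D4:**
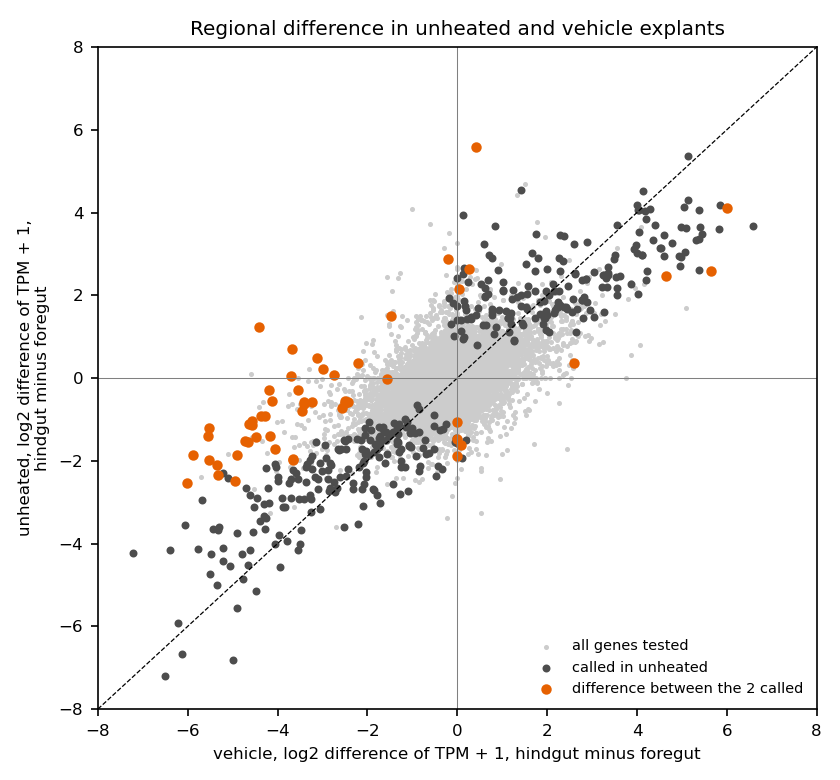
Regional difference in log2(TPM + 1), hindgut minus foregut, in vehicle explants (horizontal axis) and in unheated explants (vertical axis); each point is 1 of 28863 features, dark where called in the unheated explants and orange where the difference between the contrasts was called, with equality as a dashed line. Most of the 53 orange points lie left of the vertical axis and above the dashed line, where the hindgut was lower in vehicle by more than in the unheated explants.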

How the data were processed

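RNA-seq libraries were made from extracted total RNA with a stranded mRNA kit, per the labels' protocols, which describe the replicates as independent biological ones. The authors deposited 1 table of TPM values for 40271 features in 37 libraries. Per the submitters' processing notes FastQC, Trimmomatic and RSEM were used; the genome build is not given in the sources used here. TPM holds no depth, so the depth and the precision of low values are unknown. Of the 37 columns 33 matched 1 sample title, and 4 hindgut columns of the heat shock experiment matched only their group.

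Features at 1 TPM or more in at least 2 libraries were kept (28863, 71.7%). Values were analysed as log2(TPM + 1) with limma 3.58.1 (R 4.3.3, trended prior, 22 residual and 4.215 prior degrees of freedom), 1 mean per group over 15 groups, with Benjamini-Hochberg adjustment over all features within each contrast. Reads of near-identical homeologs may have been split between copies by the counting. Tested on simulated data of the unheated contrast (28863 features), the fit recovered 66 of 100 changes of 2 and 86 of 100 changes of 4 on the log2 scale, with 6 false calls. The simulated noise was normal, independent between libraries and of the same spread in all groups for a feature, as the fit assumes. The real libraries resembled each other across regions, so these counts do not measure the error rate of the real calls.

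Members and gene lists were chosen with earlier results of these data known. Named genes were the 12 largest called differences in each direction among features with a symbol, at least 2-fold, at 5 TPM or more in the higher region and without overlap, with their homeologs; up to 4 members per list by p; dkk1, axin2, sp5, cdx and hhex; and the 6 largest differences between contrasts in each direction. A few genes that these rules select are not reported here. Others named were list members chosen after their values were seen. In the vehicle experiment same-numbered foregut and hindgut libraries deviated together (r over 28863 features of 0.442, 0.346 and 0.352), so the replicate number was used there as a block in an alternative. Alternatives were pseudocounts of 0.1 and 5 TPM, other filters, median-of-ratios scaling, summed homeologs, smaller fits and each library left out. Figures were drawn with matplotlib 3.10.9.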

Additional observations from a re-analysis of the deposited data

Results flagged for a closer look

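For 9 of the features that the naming rules selected, the regional difference itself differed between unheated and vehicle explants (limma, adjusted p under 0.05). Treatment and experiment differ between these sets, as does the transgene if the unheated embryos carried it, and these cannot be told apart. Lower in the unheated contrast were hoxc6.S (−3.08, adjusted p = 0.00878), cdx2.L (−2.19, adjusted p = 0.0492) and hoxa7.L (−1.90, adjusted p = 0.0309), all with a hindgut excess in both experiments that was smaller in the unheated one. Higher in the unheated contrast were tgfb1.L (2.99), dkk1.L (3.36), vcan.L (3.90), pitx1.L (4.01), sst.S (4.38) and frzb.L (5.64). Frzb.L, a secreted Wnt antagonist, was at 89.1, 49.4 and 42.1 TPM in vehicle foregut and at 2.3, 1.29 and 1.71 TPM in vehicle hindgut. In the unheated libraries it was at 2.01 and 7.63 TPM in the foregut and at 7.15 and 16.7 TPM in the hindgut, so the regions were separate in vehicle and overlapped in the unheated explants. Tgfb1.L was lower in the vehicle hindgut (−1.48) and at 4.81 and 4.84 TPM in the unheated hindgut against 1.05 and 1.04 TPM in the foregut. Each of the 9 lost its call under some alternative that kept all libraries of the groups compared. Hoxc6.S lost it with 5 TPM added (adjusted p = 0.149) and with only those libraries fitted (0.255). With homeologs summed, hoxa7.L (0.107), cdx2.L (0.197) and sst.S (0.67) lost it. Without hindgut library 23, 7 features in all had such a call, and 8 of these 9 lost it, with adjusted p values from 0.0527 (frzb.L) to 0.319 (dkk1.L); hoxc6.S kept it.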

How the results depend on the processing

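The count of 400 features in the unheated contrast was 0 when only its 4 libraries were fitted (2276 at an unadjusted p under 0.05) and 89 when the 8 libraries of the heat shock experiment were fitted, 64 of them among the 400. It ranged from 224 to 298 with 1 library left out, and from 280 to 521 under the remaining alternatives, the replicate block for the vehicle and inhibitor libraries giving the 521. In the fit of 8 libraries, lower calls numbered 1 in each of the primitive myeloid, heart and cement gland lists. Higher calls there numbered 16 in Hox groups 6 to 13 and 9 in the caudal list. The vehicle count of 2155 was 841 with only the libraries compared. The difference between the contrasts (53 features) gave 33 with 0.1 TPM added, 30 with homeologs summed, 13 with only the libraries compared, 90 with the replicate block and 7 to 57 with 1 library left out. The cause of these shifts was not tested; smaller fits hold fewer samples. No paired analysis was made, because the hindgut columns of the heat shock experiment carry numbers that match no title. If those libraries were collected in pairs, the fit ignored it. The block covers the other experiment only. Of 89 named features called in the unheated contrast, 89 kept the call under median-of-ratios scaling, 76 with either other pseudocount, 68 to 71 with 1 library left out and 24 in the fit of 8 libraries, and 0 reversed. Dapp1.L, not called in itself, reversed to −3.76 when summed with dapp1.S, whose level is higher. Leaving out the 3 features high in hindgut library 23 and rescaling, chosen after seeing the data, gave 409 features. Across features, which are not independent replicates, r was 0.956 between the foregut libraries and 0.959 between the hindgut ones. Between regions it was 0.964 for foregut replicate 1 with hindgut library 12 and 0.956 for foregut replicate 2 with hindgut library 23, against 0.938 and 0.941 for the crossed pairs. With heated hindgut libraries it was 0.974 (library 12 with the one written 14) and 0.979 (library 23 with the one written 25). Libraries thus resembled each other across regions and heat, but no label pairs them, and no pairing was taken from the values. With 2 libraries per region and no counts, low genes are the least certain.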

Other observations

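Germ plasm genes were looked at after pgat.L appeared among the 12 largest increases, so their list was chosen after values were seen and has no test of its own. In Xenopus, primordial germ cells carry germ plasm and lie in the posterior endoderm at these stages. Of 13 features tested, 4 were higher in the unheated hindgut and 0 were lower, against 0.662% and 0.724% of all features. Pgat.L, a germ plasm transcript of Xenopus, was at 0.12 and 1.34 TPM in the foregut and at 40.0 and 33.4 TPM in the hindgut (4.54 ± 1.00, adjusted p = 0.0134); the call was lost without foregut replicate 1 (0.172), hindgut library 12 (0.113) or hindgut library 23 (0.0987). Dazl.L, an RNA-binding protein of germ cells, was at 0.74 and 0.81 TPM and at 17.9 and 9.12 TPM (2.96 ± 0.76, adjusted p = 0.0471, or 0.117 to 0.365 without any 1 of the 4 libraries). Tdrd7.L was at 4.04 and 5.37 TPM and at 17.6 and 14.5 TPM (adjusted p = 0.0107, or 0.0547 to 0.142 without foregut replicate 1 or either hindgut library), and nanos1.L was listed at 0 in the foregut and at 3.83 and 2.77 TPM in the hindgut (adjusted p = 0.0273, or 0.117 to 0.228 without any 1 of the 4 libraries). In the separated layers 9 of the 13 were higher in hindgut than foregut endoderm and 2 in mesoderm, against 10.7% and 1.44% of all features. Pgat.L differed by 4.54 in endoderm and was listed at 0 in both hindgut mesoderm libraries. Tdrd7.L differed by 1.39 in endoderm and by 2.73 in mesoderm (adjusted p = 0.00434 and 6.16e-06). In vehicle explants tdrd7.L passed (2.55, adjusted p = 2.14e-07). Pgat.L (1.41, adjusted p = 0.416), dazl.L (0.71, adjusted p = 0.646) and nanos1.L (1.03, adjusted p = 0.159) did not pass there. The difference between the unheated and vehicle contrasts passed for none of these 4. Ddx4.L, another feature of the list, was called higher in vehicle hindgut (1.32, adjusted p = 4.75e-05) and in hindgut mesoderm (1.70, adjusted p = 6.7e-05). It was not called in the unheated contrast (0.70 ± 0.25, adjusted p = 0.296).

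Of all features, 0.662% were higher in the unheated hindgut and 0.724% were lower. Genes of differentiated muscle and of leukocytes outside the fixed lists were also named after their values were seen, so their counts describe the picked genes only. Of 18 muscle fibre features picked in this way, 14 were higher in the unheated hindgut, among them des.1.S (desmin) at 0.27 and 0.91 TPM and at 4.82 and 21.7 TPM, and tnnt3.S (a fast troponin T) at 1.41 and 3.4 TPM and at 10.8 and 32.9 TPM. Hindgut library 23 was the higher one in both, and without it the adjusted p was 0.0688 for des.1.S and 0.138 for tnnt3.S (0.0623 without foregut replicate 1). Of 19 leukocyte features, 16 were lower in the hindgut, among them il1b.S at 17.8 and 20.5 TPM and at 4.56 and 1.13 TPM (adjusted p = 0.0307, or 0.128 to 0.545 without either foregut replicate or hindgut library 23), and cxcr2.S, a chemokine receptor of neutrophils, at 7.94 and 7.33 TPM and listed at 0 in the hindgut. In the separated layers 15 of the 19 were lower in hindgut mesoderm and 8 in hindgut endoderm, against 0.915% and 7.86% of all features. Of the 18 muscle fibre features, 7 were higher in hindgut mesoderm and 0 in hindgut endoderm, against 1.44% and 10.7% of all features. In vehicle explants neither des.1.S (−0.215, adjusted p = 0.861) nor tnnt3.S (0.912, adjusted p = 0.187) passed with limma. The difference between the unheated and vehicle contrasts passed for des.1.S (3.1 ± 0.61, adjusted p = 0.0224) and not for tnnt3.S (1.7 ± 0.61, adjusted p = 0.615). Of the muscle fibre features it also passed for klhl41.L (2.12 ± 0.33, adjusted p = 0.00382) and cacng1.S (adjusted p = 0.00666). Of the leukocyte features it passed for cxcr2.L (adjusted p = 0.0173) and ikzf1.L (1.71 ± 0.34, adjusted p = 0.0221). It did not pass for the homeolog des.1.L (adjusted p = 0.411), which was listed at 0 in every vehicle library. How far the des.1.S result rests on hindgut library 23 was not examined.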
